A study of Mus musculus with 2 samples.

Results

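Pre-mRNA splicing is steered by 2 large families of RNA-binding proteins, the serine/arginine-rich (SR) proteins and the heterogeneous nuclear ribonucleoproteins (hnRNPs), and by the kinases and scaffold proteins of nuclear speckles. The 48 genes described here are 12 SR and SR-related proteins, 9 speckle scaffolds and SR protein kinases, 17 hnRNPs and 10 further splicing regulators and 3′ splice site factors. They were taken by name from a table of read counts for 46095 mouse genes. The test covered the 17356 genes whose counts in the 2 libraries summed to 10 or more, and all 48 members were among them.

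The counts came from C3H10 (C3H/10T1/2) cells, an established mouse embryonic mesenchymal line that can turn into adipocytes. The labels call them a fibroblast precursor with adipogenic ability from C57BL/6. The name of the line points to C3H instead, and the strain was not checked. One library was made from cells given an antisense oligonucleotide (ASO) against MALAT1 and the other from cells given a negative control ASO. Both cultures were transfected at 70% confluence with 100 nM ASO and RNAiMAX, returned to full medium after 8 h and grown to confluence. Both then received the same adipogenic mix for 2 days, which the study's methods list as dexamethasone at 5 mM, isobutylmethylxanthine at 0.5 mM, insulin at 10 ng/mL and troglitazone at 0.5 mg/L. Insulin alone followed, and RNA was taken at day 6. An ASO pairs with its target RNA, which is then typically cleaved by RNase H in the nucleus, and leaves the gene itself in place. Which ASO against MALAT1 was sequenced, and whether a library came from pooled cultures, was not given in the sources used here. With 1 library per group there was no replicate check: every interval and test below covers counting error only and compares these libraries, not the conditions.

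SR proteins carry RNA-recognition motifs and a tail of arginine-serine repeats. They bind exonic enhancers and help the spliceosome to define exons, and the CLK and SRPK kinases phosphorylate their tails and thereby control where they sit in the nucleus. Many hnRNPs bind silencer elements and oppose exon inclusion, while others package pre-mRNA or take part in transport and translation. MALAT1 is an abundant nuclear long noncoding RNA of the speckles, where SR proteins, Son and Srrm2 also concentrate, and it is known to bind SR proteins.

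The control ASO library held 58147539 counts and the MALAT1 ASO library 61653549. Malat1 had 170402 counts in the control ASO library and 45396 in the MALAT1 ASO library, a log2 ratio of -2.01, and Neat1, the scaffold of paraspeckles and the neighbouring gene, had 163466 and 126386 (-0.48, with a 95% interval from -0.49 to -0.47). Markers of adipocytes and of fibroblasts were both present. The 15 adipocyte markers summed to 8212 CPM (counts per 1000000 counts of the TMM-scaled library size) in the control ASO library and 3653 CPM in the MALAT1 ASO library, and 14 of 15 fell. The 12 fibroblast and preadipocyte markers summed to 19500 and 21311 CPM, with 9 higher and 2 lower. All 24 cell cycle genes rose, from a sum of 1356 CPM to 2073 CPM, with a median log2 ratio of 0.68. The macrophage genes Ptprc, Adgre1 and Itgam and the muscle genes Myod1, Myog and Acta1 were at 0 in both libraries, while the macrophage genes Cd68 and Csf1r had 172 and 119 counts and 3 and 13 counts. The 2 tested endothelial markers summed to 49 and 44 counts and the 2 tested osteoblast markers to 54 and 75. In bulk RNA, fewer cells of a type and less RNA per cell cannot be told apart, and the part of these shifts in the differences below was not tested.

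The splicing regulators kept nearly the same share of the transcriptome. The 48 members held 568693 counts (0.978% of the library) with the control ASO and 636503 counts (1.03%) with the MALAT1 ASO. Of their 48 log2 ratios, 39 lay above 0, as did 8612 of the 17356 genes tested and 4381 of the 8251 with a mean of at least 1000 counts. The median ratio of the members was 0.08, beside -0.003 over all genes tested and 0.01 over the 8251 genes with a mean of at least 1000 counts, a depth that 46 of the 48 members reached. None differed by 2-fold, where 2.19% of all genes tested were called higher and 4.09% lower, and 0.0121% and 0.739% of the genes with a mean of at least 1000 counts. With a threshold of 25% higher, or 20% lower, 2 members were called higher, Srsf1 and Srsf3, and 0 lower. The share of all genes past that threshold was 8.84% higher and 12.0% lower, and that of the genes with a mean of at least 1000 counts 5.84% and 8.27%. Without a fold threshold, 31 members were higher and 5 lower (Srsf5, Clk1, Clk4, Srrm2 and Sf3b1), beside 24.2% and 23.8% of all genes and 35.2% and 30.1% of the genes with a mean of at least 1000 counts. These calls rest on a two-sided exact binomial test of the 2 counts of a gene, with Benjamini-Hochberg adjustment over the 17356 genes and a threshold of 0.05.

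**Figure D1:**
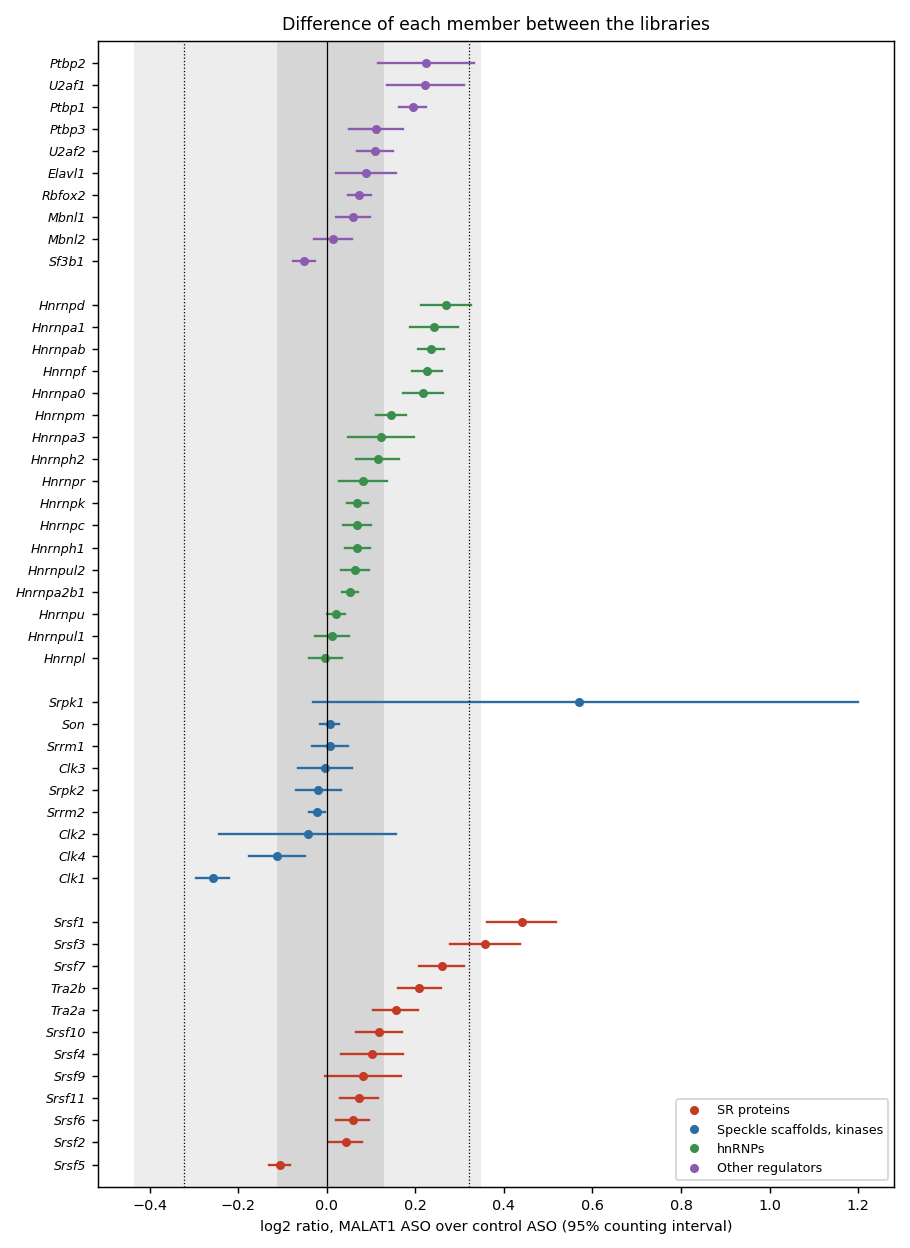
Log2 ratio of the MALAT1 ASO library over the control ASO library for each of the 48 members (points) with the 95% counting interval (lines), sorted within the 4 classes. Shading marks the middle 50% (dark) and 90% (light) of genes with a mean of at least 1000 counts, and the dotted lines mark a ratio 25% higher or 20% lower. Srsf1, Srsf3 and the poorly counted Srpk1 lie beyond the right dotted line, and no member lies beyond the left one.

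The members' log2 ratios ran from -0.26 (Clk1) to 0.57 (Srpk1), and their middle 50% from 0.01 to 0.20. Among genes with a mean of at least 1000 counts, the middle 50% of log2 ratios ran from -0.11 to 0.13 and the middle 90% from -0.43 to 0.35. Only 2.79% of those genes had a ratio as high as that of Srsf1, and 4.72% one as high as that of Srsf3. At the other end, 11.2% had a ratio as low as that of Clk1.

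**Figure D2:**
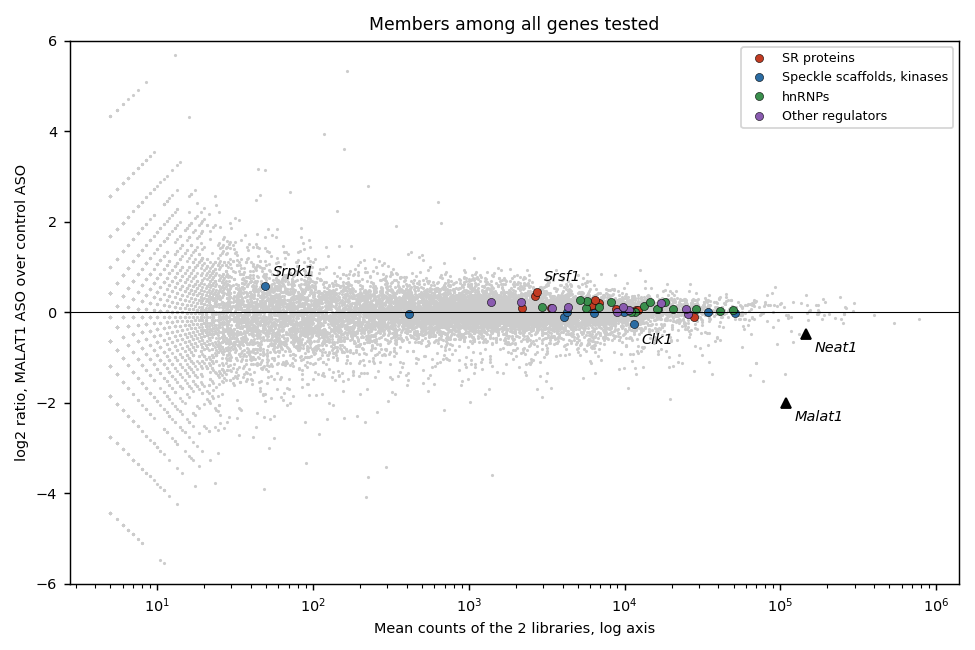
Log2 ratio (MALAT1 ASO over control ASO) against the mean counts of both libraries on a log axis, for all genes tested (grey) and the 48 members (coloured by class), with Malat1 and Neat1 as triangles. The members sit near 0 at counts above 1000, except Srpk1 and Clk2, while Malat1 lies at -2.01.

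Per kilobase of transcript, Hnrnpa2b1 was the most abundant member, with 491 CPM per kb in the control ASO library and 510 in the MALAT1 ASO library. Srsf5 (321 and 298), Rbfox2 (229 and 241) and Hnrnpk (176 and 184) followed in that order in both. At the low end stood Srpk1 (0.572 and 0.853), Clk2 (3.28 and 3.18) and Ptbp2 (8.42 and 9.82). For comparison, Malat1 stood at 423 and 105 CPM per kb of its longest transcript (6983 bases), a length rule unlike that of the members. Hnrnpa2b1 was above Malat1 in both libraries on this measure. In CPM, Malat1 (2953 and 731) was above Hnrnpa2b1 (809 and 839) in the control ASO library and below it in the MALAT1 ASO library.

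**Figure D3:**
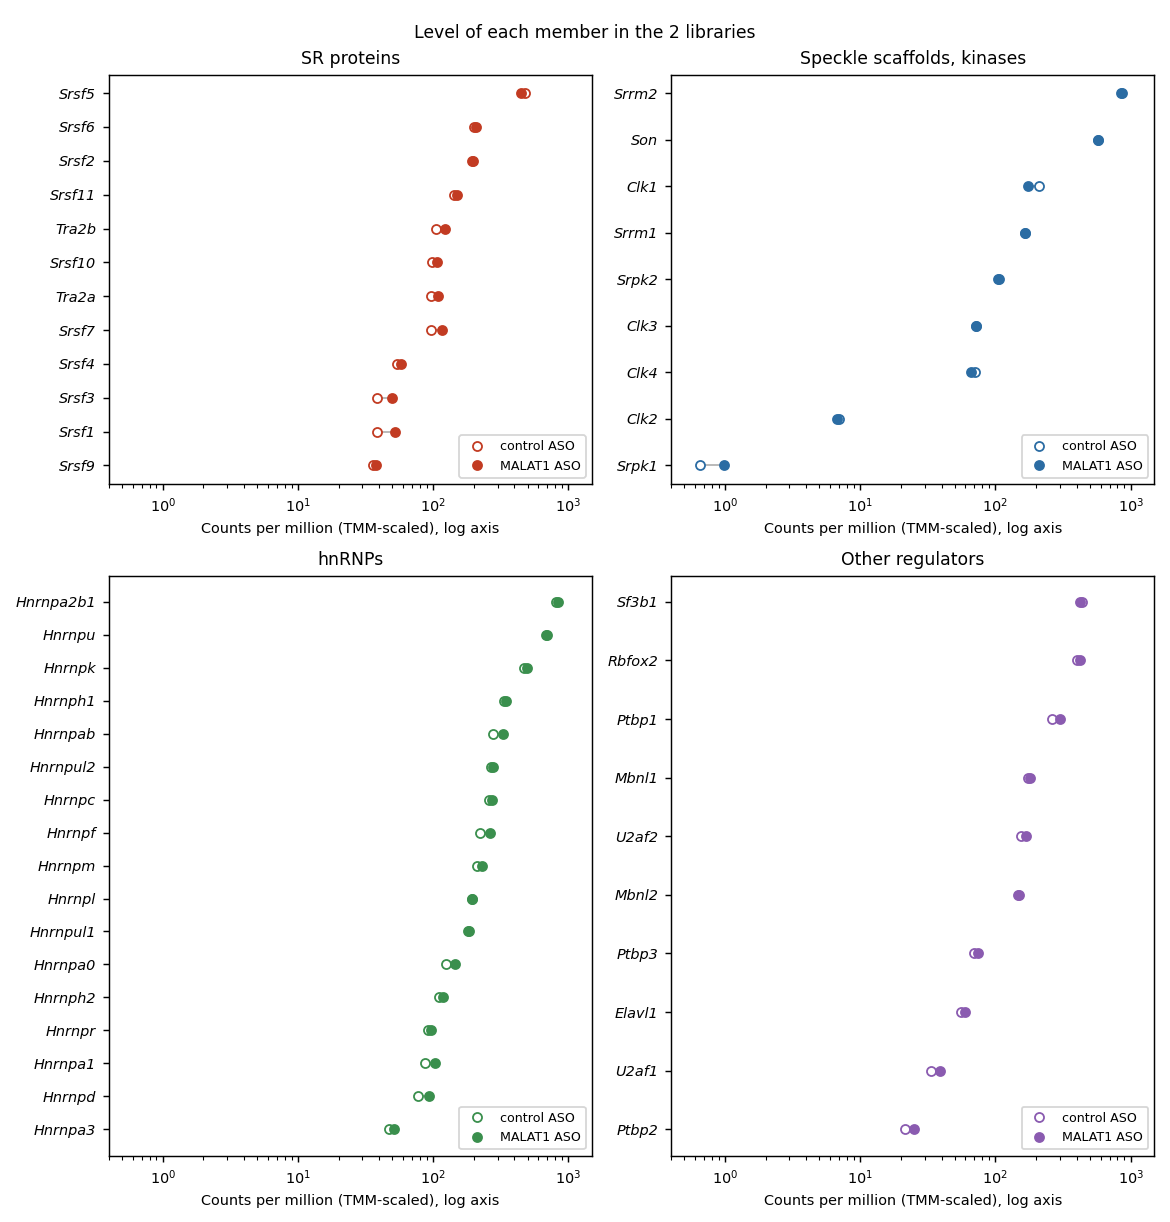
Level of each member in the control ASO library (open points) and the MALAT1 ASO library (filled points), in TMM-scaled CPM on a log axis, by class. The points of a gene nearly coincide for most members, and the visible gaps are those of Srsf1, Srsf3, Clk1 and Srpk1.

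Among the 12 SR and SR-related genes, 9 rose and 1 fell, with a median log2 ratio of 0.11. Of the genes with a mean of at least 1000 counts, 35.2% rose and 30.1% fell. Srsf1 and Srsf3, the lowest of the class per kilobase in the control ASO library, had its highest ratios. Srsf1 encodes the prototype SR protein SF2/ASF, which activates exonic enhancers and 5′ splice sites. It had 2221 counts (38.5 CPM) with the control ASO and 3244 counts (52.2 CPM) with the MALAT1 ASO, a log2 ratio of 0.44 (0.36 to 0.52). Srsf3, the smallest SR protein, also acts in mRNA export and 3′ end formation. It had 2240 counts (38.8 CPM) and 3088 counts (49.7 CPM), a ratio of 0.36 (0.28 to 0.44).

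Srsf5 moved the other way. This SR protein has a paired RNA-recognition motif like Srsf4 and Srsf6, and it was the most abundant gene of its class. It had 27745 counts in each library, which is 481 CPM in the control ASO library and 447 CPM in the more deeply sequenced MALAT1 ASO library, a log2 ratio of -0.11 (-0.13 to -0.08). Srsf6, with 11516 and 12905 counts, rose by 0.06 (0.02 to 0.09). Srsf2 (SC35), the classical marker protein of speckles, had 11151 and 12363 counts and a ratio of 0.04 (0.01 to 0.08) that missed the threshold (adjusted binomial p = 0.0521). It passed with DESeq2 size factors, upper-quartile factors or library totals in place of TMM. It also passed with TMM where at least 10 counts in each library were required, so its call depends on the scaling and the filter.

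The other SR genes lay between. Srsf7, the paralog of Srsf3 with a zinc knuckle, had 5615 and 7236 counts and rose. The Tra2 proteins, which bind GAA-rich enhancers, rose too, with 6106 and 7599 counts for Tra2b and 5618 and 6736 for Tra2a. Srsf10, a splicing repressor when dephosphorylated, had 5692 and 6650 counts, and Srsf4 had 3119 and 3604. Srsf11 had 8300 and 9402, and these 3 rose as well. Srsf9, the closest relative of Srsf1, had 2065 and 2354 counts and did not pass the test.

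The promoters of the 2 SR genes past the 25% threshold and of Srsf5, which went the other way, are shown because these genes bound the range of the class. Each run is the 250 bases before the RefSeq start of the gene (GRCm38.p6), 5′ to 3′ on the plus strand, which is the gene's own strand. Capitals mark matches on either strand to any of 9 motifs. These were the TATA box with the letters TATAAA, the CCAAT box, the Sp1 motif spelled GGGCGG, the ETS motif spelled CCGGAAG, the CRE palindrome spelled TGACGTCA, the E-box spelled CACGTG, the YY1 motif spelled AAGATGGC, the E2F motif spelled TTTNGCGC and the NRF1 motif.
Srsf1, chr11:88047123-88047372: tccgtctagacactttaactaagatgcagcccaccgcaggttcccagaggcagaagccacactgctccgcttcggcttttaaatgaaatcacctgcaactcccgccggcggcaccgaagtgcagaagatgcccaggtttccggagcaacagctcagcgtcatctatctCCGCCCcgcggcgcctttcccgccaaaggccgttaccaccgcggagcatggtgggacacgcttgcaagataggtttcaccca
Srsf3, chr17:29032410-29032659: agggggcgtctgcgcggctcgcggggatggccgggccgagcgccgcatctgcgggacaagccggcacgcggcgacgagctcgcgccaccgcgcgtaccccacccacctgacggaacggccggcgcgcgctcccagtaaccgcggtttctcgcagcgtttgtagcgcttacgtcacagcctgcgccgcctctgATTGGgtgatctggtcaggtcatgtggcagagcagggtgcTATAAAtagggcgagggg
Srsf5, chr12:80945249-80945498: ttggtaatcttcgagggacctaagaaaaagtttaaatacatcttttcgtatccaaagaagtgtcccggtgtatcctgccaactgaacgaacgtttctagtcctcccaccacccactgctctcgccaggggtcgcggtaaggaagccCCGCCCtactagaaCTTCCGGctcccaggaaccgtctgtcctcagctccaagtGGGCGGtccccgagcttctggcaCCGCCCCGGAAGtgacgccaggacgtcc

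The 3 promoters differed in these letters. Srsf1 held 1 Sp1 match, 82 bases before the start. Srsf3 held a CCAAT box in reverse orientation at 58 bases and a TATA box at 18 bases. The GENCODE M21 annotation begins the Srsf3 gene within the printed run, at 29032628, which is before that TATA box. Srsf5 held 3 Sp1 matches, at 104, 51 and 28 bases, and 2 ETS matches, at 90 and 23 bases, of which the last Sp1 and ETS matches overlap in the run of capitals nearest the start. Sp1 letters stood in 11 of 12 SR promoters (91.7%), beside 32.9% of all 27025 mouse promoters of this length and 64.3% of the 6325 promoters of genes with a mean of at least 1000 counts. ETS letters stood in 33.3% of the SR promoters, beside 7.05% and 15.8%. A match is a description of letters and not a bound site. Other spellings of a motif, such as further forms of the E2F motif, were not searched, so a missing match does not mean that a site is absent.

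Of the 9 speckle scaffolds and kinases, 0 rose and 3 fell (Srrm2, Clk1 and Clk4, of which Srrm2 passed only with TMM among the 4 scalings), where 35.2% of the genes with a mean of at least 1000 counts rose and 30.1% fell. The median log2 ratio was -0.02, which turned to 0.002 with library totals. Clk1 is a dual-specificity kinase that phosphorylates SR proteins and releases them from speckles. It had 12086 counts (209 CPM) with the control ASO and 10882 counts (175 CPM) with the MALAT1 ASO, the lowest ratio of all members at -0.26 (-0.30 to -0.22). Clk4, its closest relative, had 4084 and 4068 counts (70.8 and 65.5 CPM), a ratio of -0.11 (-0.18 to -0.05). Clk3, with 4141 and 4446 counts, and Clk2, with 403 and 421, did not pass the test.

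The scaffolds moved by less than 2%. Srrm2, the large repeat protein on which speckles are built, was the member with the most counts, 49772 and 52785. Its ratio of -0.02 (-0.04 to -0.004) passed the test with TMM scaling, failed with DESeq2 size factors or upper-quartile factors, and turned to 0.0003 with library totals. Son, the other core scaffold, had 32862 and 35541 counts and a ratio of 0.01 (-0.02 to 0.03). Srrm1, an SR-related coactivator, had 9536 and 10313 counts.

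The SRPK kinases phosphorylate SR proteins in the cytoplasm before their import. Srpk2 had 6126 and 6506 counts and did not pass the test. Srpk1 had 38 and 61 counts, and its ratio of 0.57, the highest of all members, had an interval from -0.03 to 1.20 that includes 0. Srpk1 lies at chr17:28587648-28622709 (GRCm38), in a stretch of chromosome 17 from Hmga1 to Slc26a8 where counts were low throughout. Of the 27 protein-coding genes in that stretch, 14 had under 100 and 25 under 1000 counts summed over both libraries, and the highest, the ribosomal protein gene Rps10, had 2646. These limits were set after the values were seen, and whether the low level of Srpk1 belongs to the cells or to the counting was not tested.

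The promoter of Clk4, a kinase gene that fell, is shown for comparison with those of the SR genes, in the same format and on its own plus strand. RefSeq held no entry for Clk1 in the promoter table used here.
Clk4, chr11:51262864-51263113: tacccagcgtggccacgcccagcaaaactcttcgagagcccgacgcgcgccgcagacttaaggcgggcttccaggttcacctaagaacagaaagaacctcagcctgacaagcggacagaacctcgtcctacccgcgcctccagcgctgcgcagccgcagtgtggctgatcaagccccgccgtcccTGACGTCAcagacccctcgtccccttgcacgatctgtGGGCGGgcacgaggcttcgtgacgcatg
It held a full CRE palindrome 65 bases before the RefSeq start and an Sp1 match at 28 bases. The GENCODE M21 annotation begins the Clk4 gene upstream of this run, at 51261730. CRE letters stood in 4.65% of the 43 member promoters found, which is 2 promoters, beside 1.62% of all promoters and 3.04% of the promoters of genes with a mean of at least 1000 counts.

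Of the 17 hnRNP genes, 14 rose and 0 fell, with a median log2 ratio of 0.08. The shares of the genes with a mean of at least 1000 counts were 35.2% and 30.1%. Hnrnpd (AUF1), which binds AU-rich elements and sets mRNA decay, had 4494 counts (77.9 CPM) with the control ASO and 5832 counts (93.9 CPM) with the MALAT1 ASO, a ratio of 0.27 (0.21 to 0.33). Hnrnpa1, the classical antagonist of Srsf1 in splice site choice, had 5065 counts (87.8 CPM) and 6449 counts (104 CPM), a ratio of 0.24 (0.19 to 0.30). These were the highest ratios of the class.

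The hnRNPs with A or A/B in their names moved by unequal amounts. Hnrnpa2b1 was the most abundant gene of the class and had 46705 and 52139 counts, which gave 809 and 839 CPM and a ratio of 0.05 (0.03 to 0.07). Hnrnpab rose from 16096 to 20389 counts, Hnrnpa0 from 7237 to 9058 and Hnrnpa3 from 2709 to 3175. Hnrnpc, which binds uridine tracts and guards against the use of cryptic exons, had 15084 and 17028 counts and rose.

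The 3 members of the F/H group, which binds G-rich runs, rose, while their relative Hnrnph3 outside the 48 fell. Hnrnpf had 12939 and 16298 counts, Hnrnph1 19163 and 21628, and Hnrnph2 6357 and 7410. Hnrnpm, a regulator of mesenchymal splice forms, had 12114 and 14419 counts and rose. The C-rich binding Hnrnpk had 27041 and 30537 counts, Hnrnpr 5259 and 5991, and the U-like Hnrnpul2 15357 and 17267, and these 3 rose as well.

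The hnRNPs that did not pass the test were Hnrnpu, Hnrnpul1 and Hnrnpl. Hnrnpu (SAF-A), a nuclear scaffold protein that binds chromatin-associated RNA, had 39419 and 43051 counts and a ratio of 0.02 (0.001 to 0.04), and it passed with each of the other 3 scalings. Hnrnpul1, its relative, had 10483 and 11383 counts and a ratio of 0.01 (-0.03 to 0.05). Hnrnpl, which binds CA repeats, had 11164 and 11991 counts and a ratio of -0.003 (-0.04 to 0.03).

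The promoter of Hnrnpa1 is shown because it holds more CCAAT letters than the other promoters printed here, again on its own plus strand (GRCm38.p6).
Hnrnpa1, chr15:103240147-103240396: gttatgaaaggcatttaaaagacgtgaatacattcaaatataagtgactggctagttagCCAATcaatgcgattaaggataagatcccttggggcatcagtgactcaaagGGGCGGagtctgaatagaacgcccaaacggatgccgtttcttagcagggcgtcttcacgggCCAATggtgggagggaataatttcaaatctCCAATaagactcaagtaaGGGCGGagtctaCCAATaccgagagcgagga
It held 4 CCAAT boxes, 191, 79, 49 and 19 bases before the start, and 2 Sp1 matches, at 140 and 31 bases. CCAAT letters stood in 12 of 16 hnRNP promoters (75%), beside 4 of 12 SR promoters (33.3%), 34.5% of all promoters and 36.6% of the promoters of genes with a mean of at least 1000 counts. Of the 48 members, 43 had a promoter in the RefSeq table. Clk1, Hnrnpul2, Ptbp3, Rbfox2 and U2af2 had none there.

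The 10 further regulators comprised 8 that rose and 1 that fell, with a median log2 ratio of 0.10. The shares of the genes with a mean of at least 1000 counts were 35.2% and 30.1%. The polypyrimidine tract-binding proteins repress exons whose neighbouring introns carry pyrimidine-rich runs. Ptbp2, best known from neurons, had 1240 counts (21.5 CPM) with the control ASO and 1558 counts (25.1 CPM) with the MALAT1 ASO, a ratio of 0.22 (0.11 to 0.33). Ptbp1, its ubiquitous relative, rose from 15234 to 18760 counts, and Ptbp3 from 3993 to 4641.

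The U2 auxiliary factor recognises the 3′ splice site, its small subunit at the AG and its large subunit at the polypyrimidine tract. The small subunit gene U2af1 had 1927 and 2420 counts and a ratio of 0.22 (0.14 to 0.31), and the large subunit gene U2af2 rose from 8982 to 10429 counts. Sf3b1, the U2 snRNP protein that contacts the branch site, moved the other way. It had 25098 and 26083 counts (435 and 420 CPM), a ratio of -0.05 (-0.08 to -0.03).

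The remaining 4 genes were regulators of splicing or mRNA stability. Rbfox2, a regulator of mesenchymal splicing that binds UGCAUG, was the most abundant of the 10 per kilobase. It had 23299 and 26391 counts and a ratio of 0.07 (0.05 to 0.10). Of the muscleblind proteins, Mbnl1 rose from 10040 to 11258 counts and Mbnl2, with 8550 and 9297 counts, had a ratio of 0.01 (-0.03 to 0.06). Elavl1 (HuR), which stabilises AU-rich mRNAs, rose from 3208 to 3672 counts, a call that was lost (adjusted binomial p = 0.0626) when ratios were centred on the median of genes with a mean of at least 1000 counts.

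Comparing related genes within the same libraries removes the choice of library scaling. Of 18 pairs of paralogs, 10 had a counting interval of the difference between their log2 ratios that excluded 0. The intervals were not adjusted for the number of pairs, and counts of near-identical copies, such as those of Srsf3 and Hnrnpa1, were not added. Pairs of unrelated genes at like depth were not compared, so the count is not read as a trait of paralogs. Srsf1 exceeded its relative Srsf9 by 0.36 (0.24 to 0.47). Srsf4 exceeded Srsf5 by 0.21 (0.13 to 0.28), and Srsf5 stood below Srsf6 by -0.16 (-0.21 to -0.12), so that within this trio Srsf5 parted from both others. Srsf4 and Srsf6 differed by 0.04 (-0.03 to 0.12), an interval that includes 0.

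Among kinases, Clk1 stood below Clk4 by -0.15 (-0.22 to -0.07). Srpk1 and Srpk2 differed by 0.60, but 38 and 61 counts of Srpk1 left an interval from -0.01 to 1.22. In the A/B hnRNPs, Hnrnpa1 exceeded Hnrnpa2b1 by 0.19 (0.13 to 0.25) and Hnrnpa3 by 0.12 (0.03 to 0.21). Hnrnpf exceeded Hnrnph1 by 0.16 (0.11 to 0.20). The other 3 intervals that excluded 0 came close to it, with Srsf3 above Srsf7 by 0.10 (0.003 to 0.19), Ptbp1 above Ptbp3 by 0.08 (0.01 to 0.15) and Hnrnpul1 below Hnrnpul2 at -0.05 (-0.10 to -0.0006). The pairs Tra2a and Tra2b, Hnrnpab and Hnrnpd, Hnrnph1 and Hnrnph2, Mbnl1 and Mbnl2, Ptbp1 and Ptbp2, and Clk2 and Clk3 had intervals that include 0.

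**Figure D4:**
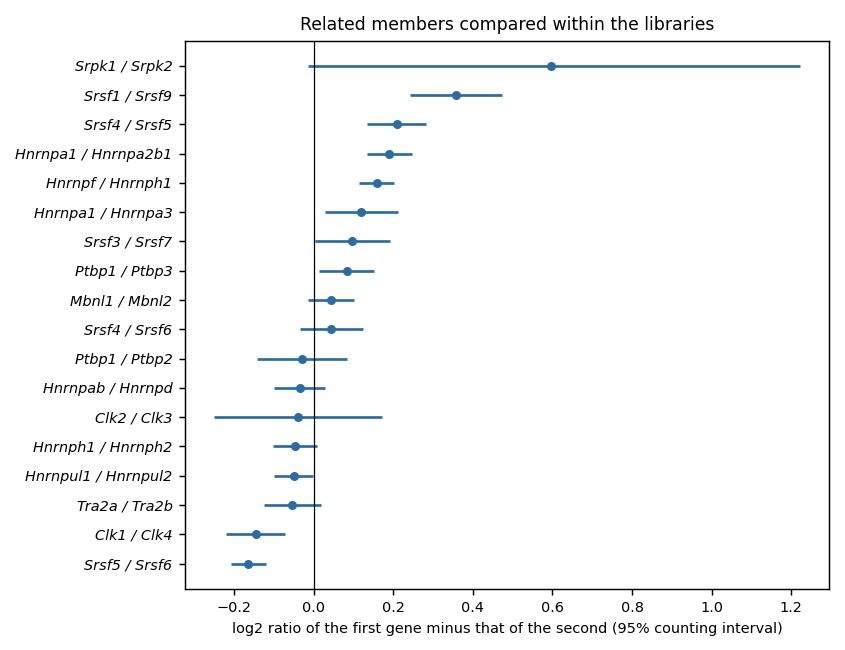
Difference between the log2 ratios (MALAT1 ASO over control ASO) of 18 pairs of related members, first gene minus second, with the exact 95% counting interval. The intervals of 10 pairs exclude 0, from Srsf1 over Srsf9 at 0.36 to Srsf5 over Srsf6 at -0.16, and the pair with Srpk1 has the widest interval.

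The rest of the splicing machinery gave the frame for these values. Of all genes tested, 24.2% rose and 23.8% fell, and of those with a mean of at least 1000 counts 35.2% and 30.1%. Of 50 tested core spliceosome genes, 26 rose and 7 fell, with a median log2 ratio of 0.10. Past 25% higher were 3 of them: Snrpc of the U1 snRNP (126 and 199 counts), the Sm ring gene Snrpg (527 and 755) and the U6-binding Lsm8 (867 and 1200). One was lower by over 20%, Sf1, the branch point binding protein, with 275 and 143 counts and a ratio of -1.05 (-1.35 to -0.75), also past 2-fold. Lsm5 had 254 and 235 counts and did not pass the test, and Cwc22 fell from 2532 to 2470 counts (-0.14, -0.22 to -0.06). Snrpc lies in the same low-count stretch as Srpk1. Of the 10 nearest protein-coding neighbours of Sf1, 5 had under 100 counts. The same number held for the well-counted members Srsf1 and Hnrnpa1, but their neighbours had medians of 1357 and 1145 counts over both libraries. All neighbours of Sf1 except Rps6ka4 lay far below both medians. Rps6ka4 was named after its counts were seen, and the source of the low counts around Sf1 was not tested.

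Among 34 tested splicing regulators outside the 48, 15 rose and 4 fell, with a median of 0.07. The shares of the genes with a mean of at least 1000 counts were 35.2% and 30.1%. Khdrbs1 (Sam68), with 2334 and 3093 counts, rose by 0.30 (0.22 to 0.38). The neuronal factors Nova1 (5 and 12 counts) and Nova2 (57 and 45) did not pass, nor did Mbnl3 (31 and 54), the third muscleblind protein. Luc7l, a U1 snRNP-associated factor, fell from 5068 to 4756 counts (-0.20, -0.26 to -0.14), and Hnrnph3 fell from 2052 to 2017 (-0.13, -0.22 to -0.04).

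Of 19 tested speckle proteins outside the 48, 8 rose and 3 fell, with a median of 0.06. The shares of the genes with a mean of at least 1000 counts were 35.2% and 30.1%. The mRNA export adaptor Alyref rose from 1858 to 2333 counts (0.22, 0.13 to 0.31). Ppig rose from 5217 to 6230 and Bclaf1 from 9456 to 11203. The arginine-serine rich protein Pnisr, with 11845 and 11670 counts, and the splicing kinase Prpf4b, with 8374 and 8461, fell by 0.13 and 0.09 on the log2 scale. Dyrk1a, a kinase, had 80 and 72 counts and did not pass. Ddx39b, with 0 counts in both libraries, was not tested, nor was the core spliceosome gene Lsm2 (2 and 4 counts). Both lie in a stretch of chromosome 17 from Kifc1 to Ddx39b. Of its 91 protein-coding genes, 81 had under 100 counts summed over both libraries. These genes and the stretch were named after their values were seen, and the source of the low counts was not tested. The members' median of 0.08 thus lay between those of the other splicing lists, and nothing particular to the members was read from it.

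**Figure D5:**
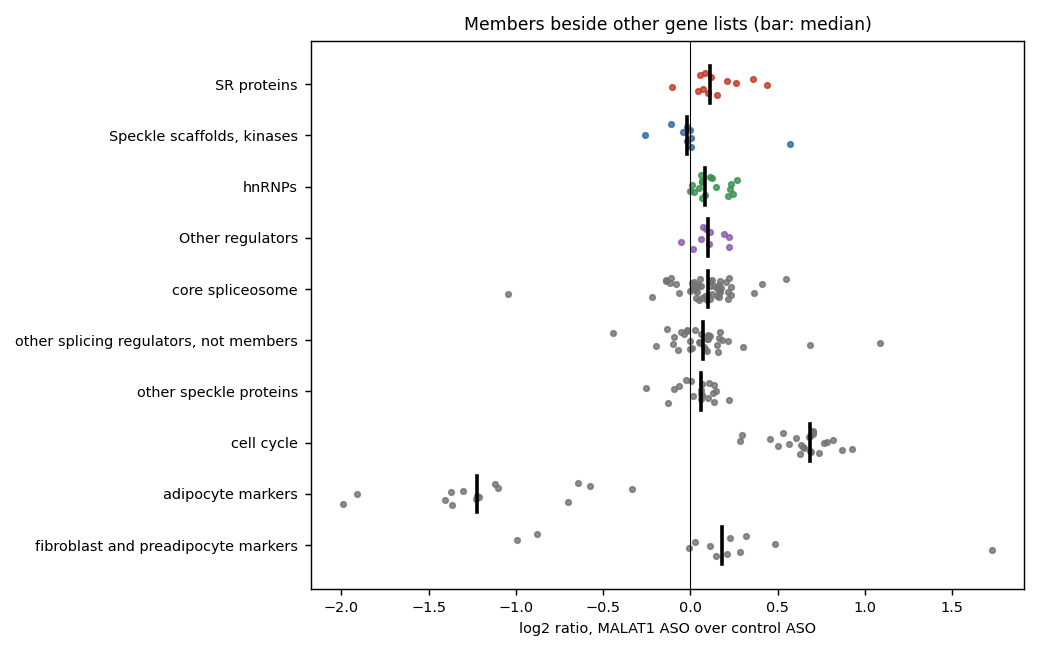
Log2 ratio (MALAT1 ASO over control ASO) of each tested gene in the 4 classes of members and in the other lists, with the median as a bar. The medians of all splicing lists lie between -0.02 and 0.11, while the cell cycle genes centre on 0.68 and the adipocyte markers on -1.22.

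Several members share sequence with copies elsewhere in the genome, so their counts are less certain. In GENCODE M21 (GRCm38), 15 members had a copy of at least 95% identity over at least 200 bases. Hnrnpa1 had 9, of which 7 were counted, and the pseudogene Gm10052, identical over 752 bases, had 3832 and 4977 counts of its own. With the copies added, the ratio of Hnrnpa1 was 0.25. Hnrnpa3 had 28 copies, of which 16 had 3004 and 3765 counts between them, more than the gene itself. Its ratio was 0.17 with them and 0.12 without. Hnrnpk had the pseudogene Gm7964 with 3008 and 3432 counts, and its ratio of 0.07 stayed at 0.07. Gm10052 and Gm7964 were named after their values were seen.

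Overlapping genes are a second limit, in part because whether the counting used strand was not given in the sources used here. Exons of 22 members overlap those of another gene, and for 13 of them that gene was counted. Srpk2 overlaps Kmt2e, which lies on the opposite strand and had 10823 and 11626 counts, more than Srpk2. Srsf2 overlaps Mfsd11 with 3154 and 3638 counts, and Clk3 overlaps Edc3 with 2182 and 2351. Hnrnpm overlaps March2 (199 and 53 counts) on the same strand, which counting by strand would not separate. These genes too were named after their values were seen.

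Counts per gene do not separate isoforms, which matters for this family. Many SR genes limit their own protein by splicing in poison exons, which send the mRNA to nonsense-mediated decay (NMD). The annotation lists at least 1 NMD transcript for 33 of 48 members (68.8%), beside 27.8% of 12968 tested protein-coding genes and 31.0% of the 7838 with a mean of at least 1000 counts. By class, these were 11 of 12 SR genes, 9 of 9 scaffolds and kinases, 7 of 17 hnRNPs and 6 of 10 further regulators. A transcript with a retained intron was listed for 40 of 48 members (83.3%), beside 56.9% and 65.6%. The members with values on both sides of 0 in the SR class, Srsf1 and Srsf5, both have NMD and retained-intron transcripts, and the gene counts do not show which form rose or fell.

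The spread between cultures has no measurement in 2 libraries. In edgeR's exact test with an assumed coefficient of variation between cultures of 0.1, 0 of 48 members passed after adjustment and 1, Srsf1, passed unadjusted (edgeR exact test p = 0.0350, adjusted p = 0.254), while 1079 of all genes tested passed. At 0.2 and at 0.4, 0 members passed even unadjusted, and 117 and 1 of all genes passed after adjustment. The direction and size of the members' ratios are values of these libraries, and how far replicate cultures would differ was not tested.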

How the data were processed

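RNA-seq libraries of 2 groups, control ASO and MALAT1 ASO, were made from total RNA after rRNA depletion with a directional kit, 1 library per group. The authors deposited raw counts of reads per gene symbol, whole numbers without normalization. The submitters' processing notes name HISAT2 and GRCm38. The counting tool, the annotation, the strand setting and the handling of reads that match several places were not given in the sources used here.

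The column of each library was matched to its label. Genes were kept where the sum of their counts reached 10 (17356 of 46095). Library sizes were scaled by TMM factors (edgeR 4.0.16, R 4.3.3). The log2 ratio is MALAT1 ASO over control ASO with a prior count of 0.5. The 2 counts of a gene were compared by an exact two-sided binomial test (smaller tail doubled) and Benjamini-Hochberg adjustment over all genes tested, with Clopper-Pearson 95% intervals (scipy 1.17.1). Intervals of pairs are exact conditional intervals of the odds ratio. All of these cover counting error only, and reads without molecular identifiers are not independent molecules. The quasi-likelihood test of edgeR and the DESeq2 test could not be fitted, since 1 library per group leaves no residual degrees of freedom. No test was made on a list.

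Levels in CPM per kb use the median length of a gene's basic protein-coding transcripts in GENCODE M21. For Malat1 and Neat1, which have none, the longest transcript was used. Copies were searched with BLAST+ 2.17.0. Promoters came from RefSeq, and 9 motifs were searched in the 250 bases upstream.

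The members and the lists were chosen with earlier results of these data known. Every member may be named with its counts. Full statistics are given for members called at 25% higher, 20% lower or 2-fold and, in each class, for the 2 highest, the 2 lowest and the 2 most abundant. From other lists, genes called at 2-fold and the 3 highest and 3 lowest are named for the splicing lists, and Malat1 and Neat1 always. Any other gene is said in the text to be chosen after its values were seen, and marker genes at 0 are named by their list.

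The alternatives were library totals, DESeq2 1.42.0 size factors and upper-quartile factors in place of TMM, no filter or at least 10 counts in each library, a prior count of 2, and the exact test of edgeR with an assumed coefficient of variation between cultures of 0.1, 0.2 or 0.4. After the data were seen, adding the counts of near-identical copies and centring on the median of genes with a mean of at least 1000 counts were added. The scripts were tested on simulated data with known changes.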

Additional observations from a re-analysis of the deposited data

How the results depend on the processing

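Where edgeR's exact test was given an assumed spread between cultures (coefficient of variation 0.1, 0.2 or 0.4), the members called past 25% higher went from 2 to 0, those called higher without a fold threshold from 31 to 0 and those called lower from 5 to 0. The core spliceosome genes called past 25% higher went from 3 to 0 under all 3 settings, and the 1 called lower and the 22 cell cycle genes called higher went to 0 at 0.2 and 0.4. The assumed values stand for a spread between cultures that these libraries cannot measure. The other scalings moved all log2 ratios by 0.002 (DESeq2 size factors), 0.01 (upper-quartile factors) and 0.02 (library totals). With library totals the ratio of Srrm2 reversed from -0.02 to 0.00033, 4 members newly passed and 35 were called higher and 4 lower. With DESeq2 size factors or upper-quartile factors, 2 members newly passed and Srrm2 no longer did. Centring on the median of abundant genes took the call from Elavl1. No filter, a prior count of 2 and adding copies changed no member's call or direction, and the filter of 10 counts in each library added Srsf2. The count of members called at 2-fold was 0 under each other scaling, filter, prior count and assumed spread, and was not counted with copies added or with centring. Depth was lowest for Srpk1 and Clk2, and the median half-width of the interval was 0.05 for SR genes and 0.03 for hnRNPs. No paired analysis was possible because each group has 1 library.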
